A study of Homo sapiens with 8 samples.

Results

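The mitochondrial ribosomal proteins are the nuclear-encoded subunits of the mitoribosome, the ribosome that works inside mitochondria. They were taken here as every gene whose symbol in the platform annotation is MRPL or MRPS followed by a number. The annotation held 80 such symbols, and 76 of them had a probe above 5.9 on at least 2 of 8 arrays, among 8830 genes that met the same filter. The brightest such probe represented each gene. Of the 76, 75 are protein genes and 1, MRPL20-AS1, is an antisense RNA gene. The 4 symbols left out were MRPS14, whose probe exceeded 5.9 on 1 array and reached 5.95, the antisense gene MRPL23-AS1 and the transcribed pseudogenes MRPL42P5 and MRPS31P5. Just inside the filter stood MRPL28, MRPS18A and MRPL49, with mean values of 6.06, 6.21 and 6.25.

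The tested cells were Kasumi-1 electroporated with 200 nM of siRE, which targets the RUNX1/ETO fusion mRNA. The controls were Kasumi-1 cells electroporated with the same dose of siMM, a mismatch siRNA. This established line comes from human acute myeloid leukaemia with the t(8;21) translocation, and cells of both arms carry the fusion gene. RNA was read on 1-colour Illumina bead arrays at 48 and 96 h, after 1 electroporation, at 168 h, after 2, and at 240 h, after 3, with times counted from the first. Each siRNA and time had 1 array. A mean ± SD therefore runs over the 4 times of an arm, and precision is limited by having 8 arrays. The p-values set a difference against a spread between times. In it limma weighs the probe's own spread (3 residual degrees of freedom) with one pooled over all probes (8.16 prior). Whether the times came from separate cultures is not stated, so the spread between times may be technical. All levels and differences are on the authors' normalized log scale, read as log2; a fold holds only if that scale is plain log2.

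Mitochondria keep a small genome that encodes core subunits of the respiratory chain, and the mitoribosome makes those proteins. It has a large subunit, which forms peptide bonds, and a small subunit, which reads the mRNA. Many of its proteins belong to families shared with bacterial ribosomes, while others exist only in mitochondria. All are made in the cytosol and imported. The number in a name often, but not always, follows that of the bacterial protein where one exists.

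RUNX1T1, the ETO partner in the fusion, checks the labels: its brightest probe stood between 7.18 and 7.81 on siRE arrays and between 8.65 and 9.23 on siMM arrays (difference -1.38, SE 0.13, limma adjusted p = 0.000197). A second RUNX1T1 probe near background stood at 0.28 (SE 0.14, limma adjusted p = 0.261), and the mean over the gene's tested probes at -0.55 (limma adjusted p = 0.0269). Of 9 measured markers of a t(8;21) myeloid blast, 7 were above 5.9 on all 8 arrays, while CD38 passed on 2 arrays and PTPRC on 0. Their mean value ran between 8.76 and 9.14 on siRE arrays and between 9.09 and 9.17 on siMM arrays. Within it CD34, a stem and progenitor marker, averaged 9.70 in siRE and 11.57 in siMM, and CEBPA, a granulocyte lineage factor, 9.37 in siRE and 8.52 in siMM; their part in the results was not tested. Among markers of erythroid cells, T cells, B cells and fibroblasts, CD79B alone passed on all 8 arrays. Bulk RNA cannot tell fewer cells of a type from less RNA per cell, and a shift shared by most transcripts is not visible after normalization.

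Averaged over the 4 times, MRPS18C was higher in siRE than in siMM cells, and MRPL4 and MRPL12 were lower. MRPS18C is the S18 protein of the small subunit, MRPL4 the L4 protein of the large subunit, and MRPL12 the L7/L12 protein of the flexible stalk to which translation factors bind. No other of the 76 members passed the test. That is 2 members lower, or 2.63%, against 3.34% of all 8830 genes, and 1 higher, or 1.32%, against 3.76%. By probes, 6.07% of all 14644 passed, 2.80% lower and 3.27% higher. Lower calls numbered 7 of 74 members with the filter at 8 arrays and 7 of 76 with limma's trend and robust options. Over all probes they numbered 523 of 10165 and 656 of 14644, against 410 of 14644 in the main fit. The lower share thus depends on these choices. Among members it was below the share of all probes in the main fit and above it in both other settings. Members are counted as genes here, and the share of all genes in those settings was not computed. The signs leaned one way: 62 of 76 members (81.6%) had a mean difference below 0, against 56.8% of all genes. The median member stood at -0.17, with quartiles of -0.32 and -0.07, and the median of all tested genes at -0.04. At an unadjusted p under 0.05, 18 members (23.7%) were lower and 1 (1.32%) higher, against 14.4% and 10.4% of all genes. Members were brighter than all tested genes, with a median level of 8.57 against 7.22. Above 5.9 on all 8 arrays were 97.4% of members and 74.1% of all genes. The shares of all genes given here and below are not matched for level.

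The promoters of the 3 members that passed are shown because they stand at both ends of the family. They are RefSeq windows on GRCh38.p14, from 250 bases before to 50 bases after the annotated start, on the plus strand: MRPS18C at chr4:83455808-83456107, MRPL4 at chr19:10251701-10252000 and MRPL12 at chr17:81703117-81703416. Capitals mark matches, on either strand, to 4 motifs: GCGCA, any base and GCGC for NRF1, CCGGAAG for ETS factors such as GABPA, CACGTG for the E-box and TGTGGT for RUNX factors. NRF1 and GABPA are known regulators of nuclear genes for mitochondria.
MRPS18C: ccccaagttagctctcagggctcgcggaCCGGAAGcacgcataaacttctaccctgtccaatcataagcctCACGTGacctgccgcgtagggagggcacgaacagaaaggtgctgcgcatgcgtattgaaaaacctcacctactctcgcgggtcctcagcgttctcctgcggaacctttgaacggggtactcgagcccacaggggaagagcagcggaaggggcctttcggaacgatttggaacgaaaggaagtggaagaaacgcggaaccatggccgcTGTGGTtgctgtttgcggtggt
MRPL4: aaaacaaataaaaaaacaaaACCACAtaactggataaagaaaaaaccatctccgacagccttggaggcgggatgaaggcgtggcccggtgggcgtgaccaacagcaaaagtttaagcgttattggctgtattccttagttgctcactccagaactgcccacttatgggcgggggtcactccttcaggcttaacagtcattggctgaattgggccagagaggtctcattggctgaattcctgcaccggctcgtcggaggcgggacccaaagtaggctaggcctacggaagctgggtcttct
MRPL12: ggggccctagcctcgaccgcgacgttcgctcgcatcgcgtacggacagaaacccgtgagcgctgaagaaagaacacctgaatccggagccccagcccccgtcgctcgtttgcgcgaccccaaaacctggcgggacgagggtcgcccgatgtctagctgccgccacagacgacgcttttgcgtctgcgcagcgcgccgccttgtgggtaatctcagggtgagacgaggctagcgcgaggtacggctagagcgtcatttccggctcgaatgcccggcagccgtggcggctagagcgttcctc
The MRPS18C window held an ETS match at position -222, an E-box at -179 and a RUNX match at 28, counted from the start site. The MRPL4 window held a RUNX match at -230, read on the other strand, and the MRPL12 window held 0 of the 4. A match is a run of letters and no evidence of binding.

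Of the 75 protein genes, 67 had a promoter entry; MRPL23, MRPS28, MRPL2, MRPL21, MRPL13, MRPL15, MRPL35 and MRPL10 had none. The ETS letters were in 28 of 67 member promoters (41.8%), in 20.6% of the promoters of 7233 tested genes and in 10.7% of all 27305 promoters. The NRF1 letters were in 8 members (11.9%), against 13.3% of tested genes and 6.28% of all promoters. The E-box was in 6 members (8.96%), against 11.0% of tested genes and 7.43% of all. The RUNX letters were in 5 members (7.46%), against 9.57% of tested genes and 13.1% of all. Members with and without the ETS letters had median differences of -0.12 and -0.20, and those with and without the RUNX letters -0.17 and -0.16. By this measure the ETS letters were the motif that stood out in the family, at 2 to 4 times the shares among tested genes and all promoters. The median differences by motif were not tested.

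MRPS18C read 10.20, 10.14, 10.46 and 10.68 on the siRE arrays of 48, 96, 168 and 240 h, against 9.86, 9.55, 9.58 and 9.30 on the siMM arrays. The arms did not overlap. The gap was widest at 240 h, where siRE had its highest value and siMM its lowest, so the control moved as well. The mean was 10.37 ± 0.25 in siRE and 9.57 ± 0.23 in siMM (SD, n = 4 arrays each), a difference of 0.80 (SE 0.17, limma adjusted p = 0.0206), or 1.74-fold. The call was lost when the 96 h arrays (0.87, limma adjusted p = 0.0801) or the 168 h arrays (0.77, limma adjusted p = 0.140) were left out, and when values under 5.9 were set to 5.9 (limma adjusted p = 0.0619). RefSeq names 6 pseudogenes of MRPS18C, and whether the probe also reads them was not tested.

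MRPS18C has 2 paralogues of the S18 family in the mitoribosome: MRPS18B in the small subunit and MRPS18A, despite its name, in the large subunit. MRPS18B read 8.93, 9.07, 8.97 and 8.94 in siRE in order of time and between 8.99 and 9.38 in siMM, with a difference of -0.12 (SE 0.14, limma adjusted p = 0.647). MRPS18A read 6.14, 6.42, 6.09 and 5.58 in siRE and 6.87, 6.02, 6.31 and 6.24 in siMM, with a difference of -0.30 (SE 0.19, limma adjusted p = 0.363). A dimmer MRPS18B probe had the other sign, at 0.03 (SE 0.14, limma adjusted p = 0.916). In both paralogues the arms overlapped. The difference of MRPS18C exceeded that of MRPS18A by 1.10 and that of MRPS18B by 0.92, and it was the larger at each of the 4 times, by at least 0.18 and 0.42. This contrast was chosen after the values were seen and was not tested.

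**Figure D1:**
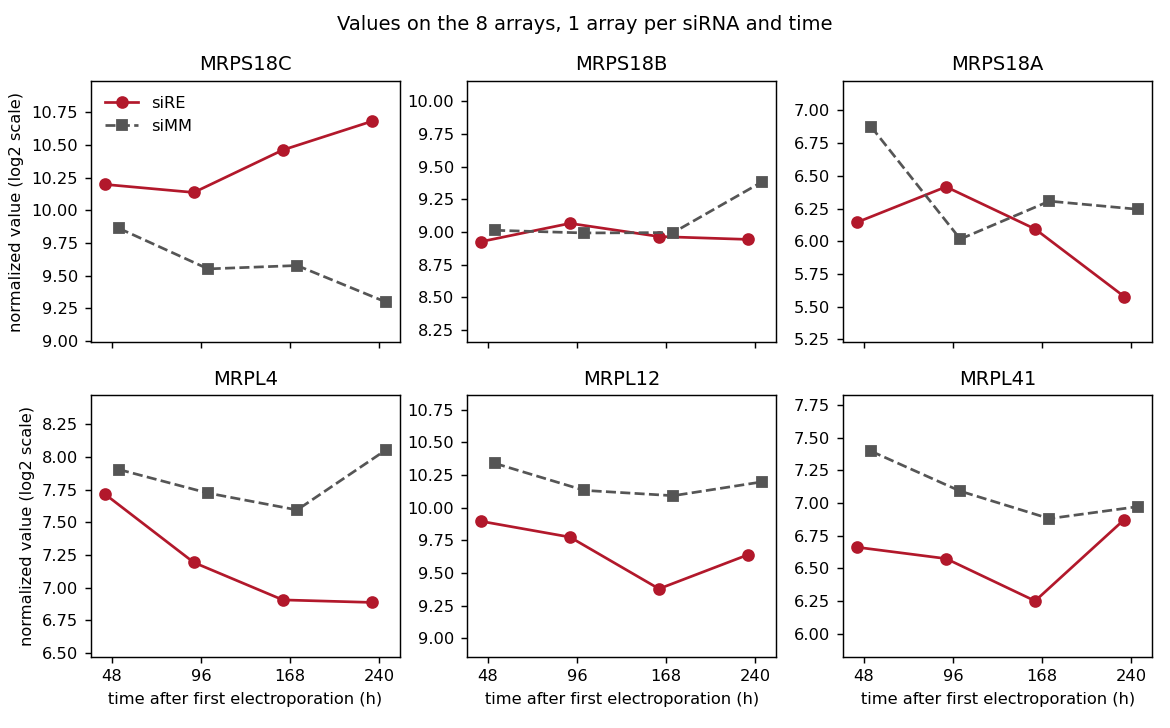
Normalized values on the log2 scale (vertical axis, 2 units high in each panel) against time after the first electroporation in hours (evenly spaced, not to scale), for 6 members on the 8 arrays; red circles are siRE arrays and grey squares siMM arrays, 1 array per point. MRPS18C lies above siMM at all 4 times, and MRPL12 and MRPL41 lie below it at all 4. The arms of MRPL4 stand 0.19 apart at 48 h and 1.17 apart at 240 h, where siMM has its highest value.

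MRPL4 read 7.72, 7.19, 6.91 and 6.89 on siRE arrays in order of time, against 7.90, 7.72, 7.59 and 8.05 on siMM arrays. It was lower in siRE at each time, although the siRE value of 48 h lay within the siMM range. From 168 to 240 h the siRE value barely moved while the siMM value rose, so the control moved as well. The mean was 7.17 ± 0.39 in siRE and 7.82 ± 0.20 in siMM (SD, n = 4 arrays each), a difference of -0.64 (SE 0.16, limma adjusted p = 0.0444). A dimmer MRPL4 probe stood at -0.33 (SE 0.15, limma adjusted p = 0.215). The call was lost when the 96, 168 or 240 h arrays were left out (-0.68, -0.63 and -0.47, limma adjusted p between 0.126 and 0.206) and in a fit that ignored time (limma adjusted p = 0.0882). It was also lost with values under 5.9 set to 5.9 (limma adjusted p = 0.0840) and with the mean over both probes (-0.49, limma adjusted p = 0.0866).

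MRPL12 read 9.90, 9.77, 9.38 and 9.64 on siRE arrays and 10.34, 10.13, 10.09 and 10.20 on siMM arrays. Every siRE value was below every siMM value. The mean was 9.67 ± 0.22 in siRE and 10.19 ± 0.11 in siMM (SD, n = 4 arrays each), a difference of -0.52 (SE 0.13, limma adjusted p = 0.0444). The gap was already present at 48 h, at -0.44, and read -0.36, -0.71 and -0.56 at the later times. The call was lost when the 48, 96, 168 or 240 h arrays were left out (-0.54, -0.57, -0.45 and -0.50, limma adjusted p between 0.0665 and 0.248). It was also lost in a fit that ignored time (limma adjusted p = 0.0778), with no filter (limma adjusted p = 0.0809) and with cyclic loess (limma adjusted p = 0.0523). MRPL10, which anchors the stalk, stood at 0.12 (SE 0.13, limma adjusted p = 0.644).

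Other large-subunit members with low differences did not pass. MRPL41, found only in mitochondrial ribosomes, read 6.66, 6.57, 6.25 and 6.87 in siRE and 7.40, 7.09, 6.88 and 6.97 in siMM, with no overlap, and a difference of -0.50 (SE 0.15, limma adjusted p = 0.0719). Its gap was widest at 48 h (-0.73) and narrowest at 240 h (-0.10); without the 240 h pair it passed (-0.63, limma adjusted p = 0.0270). MRPL23, a protein at the rim of the peptide exit tunnel, stood at -0.48 (SE 0.15, limma adjusted p = 0.0813), and MRPL32, a protein cut to its mature form by the mitochondrial m-AAA protease, at -0.42 (SE 0.13, limma adjusted p = 0.0896). On neither did the arms overlap. MRPL23 ran between 9.86 and 10.30 in siRE and between 10.35 and 10.76 in siMM, and MRPL32 between 8.51 and 9.09 in siRE and between 9.10 and 9.37 in siMM. MRPL20, a bacterial-type protein of the large subunit, stood at -0.37 (SE 0.17, limma adjusted p = 0.221), and its second probe, of nearly the same brightness, at -0.06 (limma adjusted p = 0.842).

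The small-subunit members with the lowest differences were MRPS2, MRPS6, MRPS35 and MRPS28, none of which passed. MRPS6, the bacterial-type S6 protein, read 9.95, 9.65, 9.74 and 9.60 in siRE and 10.43, 10.04, 10.05 and 10.14 in siMM, with no overlap, and a difference of -0.43 (SE 0.13, limma adjusted p = 0.0765). MRPS35, a protein of mitochondrial ribosomes only, read 8.63, 8.42, 8.09 and 8.25 in siRE and 8.83, 8.74, 8.81 and 8.72 in siMM, also with no overlap (-0.43, SE 0.14, limma adjusted p = 0.0982). Its siMM values were steady over time (SD 0.06), so that its gap followed the siRE arrays. MRPS2, the S2 protein, stood at -0.44 (SE 0.16, limma adjusted p = 0.133) and MRPS28 at -0.41 (SE 0.16, limma adjusted p = 0.152), with overlap in both. With the filter at 8 arrays the calls gained were 5, the same 5 as with limma's trend and robust options: MRPL23, MRPL32, MRPL41, MRPS6 and MRPS35.

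At the upper end MRPS18C stood alone past the threshold. MRPL33, a bacterial-type protein of the large subunit, was next, with 10.21, 10.41, 10.72 and 10.73 in siRE and 10.40, 10.16, 10.40 and 9.96 in siMM (0.28, SE 0.16, limma adjusted p = 0.330). Its difference was 0.44 without the 48 h arrays and 0.12 without the 240 h arrays. A second MRPL33 probe gave 0.32 (SE 0.15, limma adjusted p = 0.244). MRPL28, another bacterial-type protein, stood at 0.24 (SE 0.18, limma adjusted p = 0.465), but its values lay near background, above 5.9 on 3 siRE and 2 siMM arrays, and leaving out 1 time gave between 0.075 and 0.38. MRPL51, MRPS33, MRPL10, MRPL17 and MRPL9 stood between 0.09 and 0.16 (limma adjusted p between 0.504 and 0.750). A dimmer MRPS33 probe had the other sign, at -0.07 (SE 0.13, limma adjusted p = 0.791). All 7 members below MRPS18C in this order overlapped between arms.

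**Figure D2:**
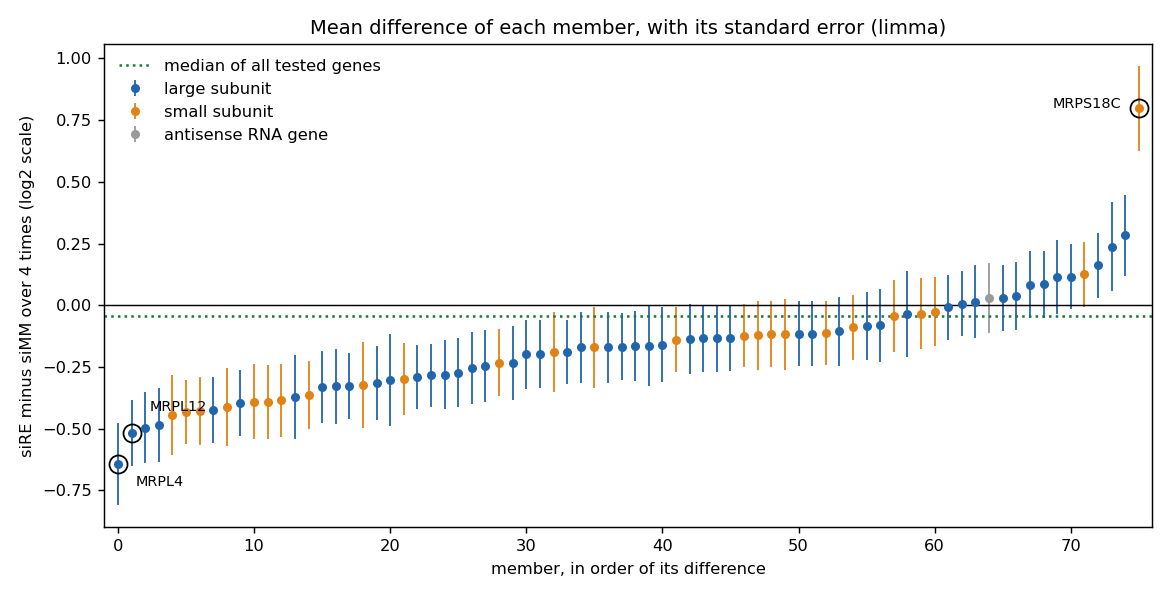
Difference siRE minus siMM over 4 times on the log2 scale (vertical axis) for the 76 members in order of that difference (horizontal axis); bars are the limma standard error, blue is the large subunit, orange the small subunit, grey the antisense gene, and black rings mark an adjusted p under 0.05. Of the 76, 62 lie below 0 and the dotted line at -0.04 is the median of all tested genes.

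Placed by the subunit in which each protein sits, 39 of 50 large-subunit members and 23 of 25 small-subunit members had a mean difference below 0. The medians were both -0.17. Of the 45 members of bacterial families 37 were below 0, with a median of -0.17, and of the 30 found only in mitochondria 25 were, with a median of -0.14. Neither split was tested, and 56.8% of all tested genes were below 0. Arms did not overlap for 7 members with siRE below (9.21%, against 5.93% of all genes) and for 1 with siRE above (1.32%, against 5.52%). The 7 were MRPL12, MRPL41, MRPL23, MRPS6, MRPS35, MRPL32 and MRPL2, and the 1 was MRPS18C. Lower at all 4 times were 25 members (32.9%, against 19.2% of all genes), and higher at all 4 were 2 (2.63%, against 13.9%), MRPS18C and MRPL51. For 38 of the 76 the 95% interval of the difference lay within 0.5 either way. Of 22 members with several tested probes, 15 had probes of 1 sign, and in none of the other 7 did a probe pass.

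The members' median difference stood at -0.10, -0.08, -0.22 and -0.30 at 48, 96, 168 and 240 h, while that of all tested genes stood at -0.02, -0.04, -0.03 and -0.07. Single times have 1 array against 1 and no test. Below 0 were 54, 47, 60 and 56 of the 76 members at these times. These were 71.1%, 61.8%, 78.9% and 73.7% of members, against 52.5%, 54.9%, 52.9% and 55.5% of all genes. At -0.5 or lower were 3, 6, 13 and 20 members, or 3.95%, 7.89%, 17.1% and 26.3%, against 3.76%, 8.30%, 11.6% and 21.7% of all genes. At 0.5 or higher were 0, 1, 3 and 3 members, or 0%, 1.32%, 3.95% and 3.95%, against 4.21%, 6.72%, 10.8% and 14.1% of all genes. The spread of all genes widened with time too, and members at -0.5 or lower were nearest the share of all genes at 48 and 96 h.

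**Figure D3:**
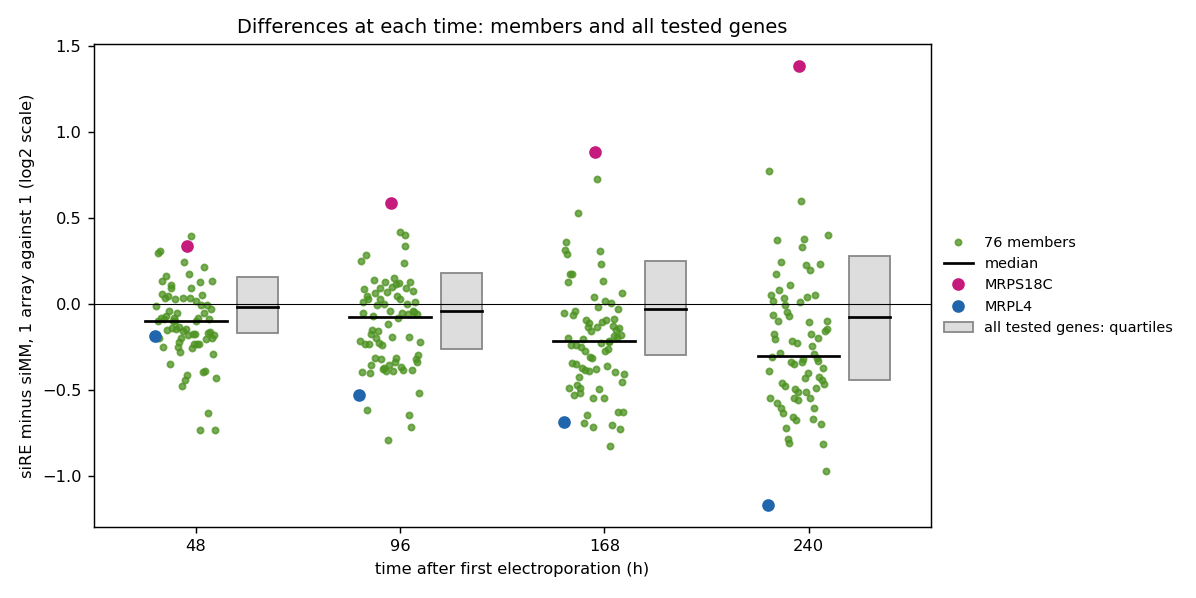
Difference siRE minus siMM at each time on the log2 scale (vertical axis, 1 array against 1) against time in hours; green points are the 76 members, black lines medians, grey boxes the quartiles of all 8830 tested genes, pink MRPS18C and blue MRPL4. The members' median stands at -0.10 at 48 h and -0.30 at 240 h, with MRPS18C at 1.38 and MRPL4 at -1.17 at 240 h.

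The difference changed with time for no member by the test (limma, siRNA by day), and for 18 of 14644 probes, or 0.123%. At an unadjusted p under 0.05 there were 4 members. MRPL4 had the most negative slope, -0.11 a day (SE 0.05, limma adjusted p = 0.499). MRPS18C had the most positive, 0.13 a day (SE 0.04, limma adjusted p = 0.380), followed by MRPL28 at 0.12 (SE 0.05) and MRPL33 at 0.11 (SE 0.05). The share with a negative slope at unadjusted p under 0.05 was 1.32% of members and 5.59% of all genes, and with a positive slope 3.95% and 3.77%. MRPL20, MRPS27, an RNA-binding protein of the small subunit, and MRPS28 followed MRPL4 at -0.11, -0.11 and -0.10 a day. MRPL40, a large-subunit protein found only in mitochondria, had the fourth most positive slope at 0.09 a day and read -0.43, -0.22, -0.41 and 0.40 at the 4 times. None of these 4 passed (limma adjusted p between 0.541 and 0.635).

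The members also moved with time inside each arm. Around the arm's own mean, their median stood at 0.20, -0.05, -0.12 and -0.08 at 48, 96, 168 and 240 h in siRE, and at 0.13, -0.07, -0.08 and 0.01 in siMM. All tested genes stayed within 0.04 of 0 at each time in both arms. The 48 h array gave the highest of the 4 values for 44 members in siRE (57.9%, against 31.8% of all genes) and for 45 in siMM (59.2%, against 26.3%). The 168 h array was the highest for 3 members in siRE (3.95%, against 20.8% of all genes) and 5 in siMM (6.58%, against 21.4%), and the 240 h array for 16 in siRE (21.1%, against 24.8%) and 17 in siMM (22.4%, against 23.5%). The higher values at 48 h were thus present in both arms, with 1 array an arm. In order of time, the arrays were taken 48, 96, 72 and 72 h after the last electroporation. Time, this interval and the number of electroporations cannot be told apart here or in the slopes per day.

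Some members share a start region with a neighbour on the other strand. Of 67 members with a promoter entry, 21 (31.3%) had such a gene starting within 1000 bases upstream, against 25.1% of tested genes. MRPL46 and MRPS11, both members, are each other's neighbour. Another 11 members had a tested neighbour outside the family, of which 0 passed by limma, with a median of -0.18 and the sign of the member in 7. Of all tested genes 3.34% passed lower and 3.76% higher, 56.8% were below 0 and the median was -0.04. The agreement in sign was not tested. Next to MRPS18C lies HELQ, a DNA repair helicase, whose start is 175 bases away. HELQ stood at 0.56 (SE 0.19, limma adjusted p = 0.108), and at 0.10, 0.18, 0.69 and 1.26 at the 4 times, against 0.34, 0.58, 0.88 and 1.38 for MRPS18C. MRPS12, the S12 protein of the small subunit, stood at -0.30 (limma adjusted p = 0.256) and its neighbour SARS2, the mitochondrial seryl-tRNA synthetase, at -0.56 (SE 0.16, limma adjusted p = 0.0577). These neighbours were named after their values were seen.

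Other genes of mitochondrial gene expression were set beside the members; over all tested genes 3.34% were lower and 3.76% higher. Of 24 tested genes of mitoribosome assembly and rRNA modification, 2 were lower and 0 higher, with a median of -0.14. RPUSD3, a pseudouridine synthase family member, stood at -0.62 (SE 0.15, limma adjusted p = 0.0385). DHX30, an RNA helicase, stood at -0.54 (SE 0.14, limma adjusted p = 0.0491). Of 18 genes of mitochondrial DNA and RNA handling, 1 was lower and 0 higher, with a median of -0.24. It was TWNK, the mitochondrial replicative helicase, at -0.58 (SE 0.15, limma adjusted p = 0.0441), on which the arms did not overlap. The calls of all 3 ended without the 96, 168 or 240 h pair: RPUSD3 (-0.74, -0.52 and -0.53), DHX30 (-0.44, -0.59 and -0.50) and TWNK (-0.56, -0.52 and -0.51), at limma adjusted p between 0.0735 and 0.237. They were also lost with values under 5.9 set to 5.9 (limma adjusted p between 0.0621 and 0.0680). DHX30 and TWNK were lost as well in a fit that ignored time (limma adjusted p = 0.0905 and 0.0531) and with no filter (limma adjusted p = 0.0809 and 0.0616), and DHX30 with cyclic loess (limma adjusted p = 0.0559).

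By limma 0 of 14 mitochondrial translation factors passed (median -0.14, 1 lower at unadjusted p under 0.05). Likewise 0 of 17 genes for charging mitochondrial tRNAs passed (median -0.14, 4 lower), and 0 of 23 import genes (median -0.27, 9 lower). Among 10 regulators such as MYC, NRF1 and GABPA, 0 passed (median -0.10, 2 lower). Genes next to the members in function but outside this group lay nearer 0: 0 of 69 cytosolic ribosomal protein genes passed (median -0.0047, 5 lower and 0 higher at unadjusted p) and 0 of 50 respiratory chain and ATP synthase subunits (median -0.019, 4 lower and 1 higher). At 240 h the medians of these were 0.05 and 0.01, against -0.30 for the members. The cytosolic ribosomal protein genes had a median level of 13.74, close to the highest value on any array, 14.36. The respiratory chain and ATP synthase subunits had one of 10.09 and the members one of 8.57. Whether brightness narrowed these differences was not tested. Over all tested genes 14.4% were lower and 10.4% higher at unadjusted p under 0.05. The differences between lists were not tested.

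**Figure D4:**
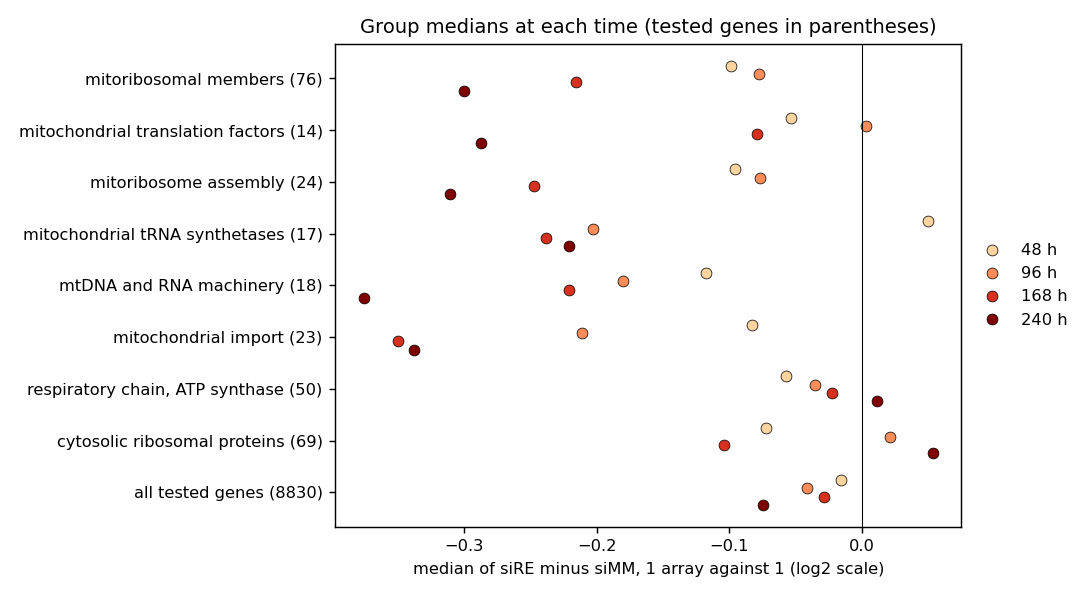
Median difference siRE minus siMM on the log2 scale (horizontal axis, 1 array against 1) for 8 gene groups and all tested genes (rows, with the number tested), colour by time. At 240 h the members stand at -0.30, import genes at -0.34, and cytosolic ribosomal proteins at 0.05.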

How the data were processed

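RNA of 8 Kasumi-1 samples was measured on Illumina bead arrays. The submitters' processing notes name lumi (no version). The deposited values are on a log scale read as log2, between 3.89 and 14.36; how background was treated is not given in the sources used. Whether the scale is plain log2 or variance-stabilised stays unknown, and no direction is in doubt, since each column is 1 array. Column medians lay between 5.364 and 5.368, and the largest gap between sorted arrays was 0.0235, so no normalization was added. A deposited non-normalized table (16 columns) was not used, since no label ties its columns to samples.

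Groups came from the sample characteristics and times from the source names. The filter (above 5.9 on 2 or more arrays) left 14644 of 47230 probes, of which 3147 had no single gene symbol. Of 47230 probes, 30112 had 1 symbol, 8 had several and the others none; Entrez numbers of 30073 were in RefSeq (GRCh38.p14), which changed 0 symbols. limma 3.58.1 in R 4.3.3 fitted siRNA and time as factors over all probes (3 residual and 8.16 prior degrees of freedom), with p adjusted by Benjamini-Hochberg and called under 0.05. The slope fit had a line per siRNA over days 2, 4, 7 and 10 (4 residual degrees of freedom). The labels give each siRE array a siMM array of the same time, and the fit used these pairs. Deviations from arm means correlated at 0.375, 0.292, 0.212 and 0.0724 within the 4 times. Between different times the correlations ran from -0.320 to 0.198, so the 240 h pair was no closer than some unmatched arrays. Scripts were tested on simulated data.

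Members and lists were chosen with earlier results of these data known. Named are members past the threshold, the 8 lowest and 8 highest differences, the 4 steepest slopes each way, and up to 4 called genes of each other list; genes outside this are said to be so. MRPS18A, MRPS18B, MRPL2 and other single values given for context were chosen after their values were seen. Alternatives were no time block, other filters and error models, cyclic loess, probe averaging and leaving out each time.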

Additional observations from a re-analysis of the deposited data

Results flagged for a closer look

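MRPL9, a bacterial-type protein of the large subunit, read 7.14 on the siMM array of 168 h, apart from the other 3 siMM arrays, which lay between 7.42 and 7.45. What marked it was the gap to its nearest neighbour, which made up 0.913 of the range of the 4 values, above Dixon's critical value. Of 152 sets of 4 arrays compared over the 76 members, 6 passed that value, and chance alone passes about 1 in 20. The siRE arrays of MRPL9 read 7.48, 7.71, 7.32 and 7.28.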

How the results depend on the processing

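The median difference of the members kept its sign in all 12 alternatives, between -0.19 and -0.14, and has no test of its own. Removing the time block or adding trend and robust cannot change a difference in this balanced design, only its call. The median also stayed at -0.17 with the filter at all 8 arrays, with values under 5.9 set to it and with probe averages. The median of all tested genes was below 0 in all 12 as well, between -0.05 and -0.01. Members lower numbered 2, and 0 with no replicate block for time, 1 with no filter, 7 with the filter at all 8 arrays, 1 with values under 5.9 set to it, 7 with limma's trend and robust options, 3 with array weights, 1 with cyclic loess and 1 with probe averages. Members higher numbered 1, and 0 with values under 5.9 set to it. Leaving out the pair of each time gave 0 to 1 lower and 0 to 1 higher. Probes lower numbered 410, and 215 without the block and 186 with values under 5.9 set to it. They numbered 523 with the filter at all 8 arrays and 656 with trend and robust. Leaving out a time gave 89 to 596. Probes higher numbered 479, and 315 without the block and 279 with values set to 5.9; leaving out a time gave 162 to 579. Leaving out a time also leaves fewer residual degrees of freedom. Of the 24 genes named by rule, none changed sign in any alternative, though not every alternative could change a difference. Over genes and alternatives the call was the same in 242 cases, ended in 33 and was gained in 12. No member had a called slope in any of these runs, including one with time as a replicate block added after seeing the data (0 called); the slope fit has no block to remove. MRPL28 had no value with the filter at all 8 arrays. Values near 5.9, as of MRPL28 and MRPS18A, limit what their differences show. The other causes of these shifts were not tested.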

Other observations

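Mitoribosomal proteins with other names that were also above 5.9 on at least 2 arrays were GADD45GIP1, CHCHD1 and DAP3. GADD45GIP1, a large-subunit protein, read 6.58, 6.02, 5.73 and 5.89 in siRE and 6.71, 6.24, 6.40 and 6.59 in siMM (-0.43, SE 0.15, limma adjusted p = 0.117). The small-subunit protein CHCHD1 stood at -0.19 (SE 0.14, limma adjusted p = 0.453). DAP3, the GTP-binding protein of the small subunit, stood at -0.04 (SE 0.13, limma adjusted p = 0.895). PTCD1, an RNA-processing protein of mitochondria that had been listed with these 3, stood at -0.20 (SE 0.16, limma adjusted p = 0.487). MRPL20-AS1, the antisense gene that the symbol pattern admitted, stood at 0.03 (SE 0.14, limma adjusted p = 0.924).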
